A study of Mus musculus with 8 samples.

Results

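The genes described here are the IGF binding proteins and the IGF receptors, 8 genes picked by symbol from the 53465 genes counted in the deposited table. The 6 binding proteins are *Igfbp2*, *Igfbp3*, *Igfbp4*, *Igfbp5*, *Igfbp6* and *Igfbp7*, and the 2 receptors are *Igf1r* and *Igf2r*. The family was drawn up with values from these libraries already known and no threshold was set, so the calls below describe the family and are not independent evidence for it. RNA was measured in 8 libraries from 2 mouse PDAC lines, B73 and B87. Both lines were derived from primary tumors of KC-shSmad4 mice, a Ptf1a-Cre model of pancreatic cancer in which a Dox-dependent, GFP-linked hairpin from the Col1a1 locus depletes *Smad4*, with rtTA3 and mKate2 expressed from Rosa26. Smad4 off cells stayed on Dox and Smad4 on cells had been without Dox for 5 days before plating. From 24 h after plating, each was given 100 pM TGFβ1 or 2.5 µM SB505124, a TGFβ type I receptor kinase inhibitor, for 24 h. The 4 groups (both *Smad4* states with either agent) thus held 1 library per line. All 8 libraries carry the hairpin cassette. Cells with a control hairpin or without either agent were not analysed here, so Dox removal and *Smad4* state cannot be told apart, and a TGFβ1 difference is always measured against the inhibitor. The 2 libraries of a group are different lines, and the line is a term of the model. The p-values thus reflect how far the differences between groups vary between these 2 lines. In edgeR the spread of each gene was also moderated with that of the other genes.

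IGF1 and IGF2 act mainly through the IGF1 receptor, a tyrosine kinase that signals through insulin receptor substrates to PI3K and AKT. The IGF2 receptor, also the cation-independent mannose 6-phosphate receptor, binds IGF2, takes it to the lysosome for breakdown and sorts lysosomal enzymes. The classical secreted binding proteins hold IGFs with high affinity outside the cell and can limit or prolong their action, and proteases release the ligand by cutting them. IGFBP7 binds IGFs weakly and is also known as a secreted matrix protein of vessels and senescent cells.

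The upstream sequences of 3 members are shown first, because *Igfbp3* and *Igfbp7* rose with TGFβ1 and *Igfbp4* did not pass the test. Each is the 250 bases before the RefSeq transcription start on GRCm38.p6, 5′ to 3′ on the strand of the gene, with any match to the 4 searched motifs in capitals. *Igfbp3* lies on the minus strand of chromosome 11 at chr11:7213924-7214173, *Igfbp7* on the minus strand of chromosome 5 at chr5:77408046-77408295 and *Igfbp4* on the plus strand of chromosome 11 at chr11:99040994-99041243.
Igfbp3: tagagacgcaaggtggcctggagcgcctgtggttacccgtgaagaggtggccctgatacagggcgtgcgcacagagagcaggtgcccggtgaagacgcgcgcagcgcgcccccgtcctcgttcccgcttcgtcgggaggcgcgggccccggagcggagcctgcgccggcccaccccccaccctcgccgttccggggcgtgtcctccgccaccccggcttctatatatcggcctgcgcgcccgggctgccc
Igfbp7: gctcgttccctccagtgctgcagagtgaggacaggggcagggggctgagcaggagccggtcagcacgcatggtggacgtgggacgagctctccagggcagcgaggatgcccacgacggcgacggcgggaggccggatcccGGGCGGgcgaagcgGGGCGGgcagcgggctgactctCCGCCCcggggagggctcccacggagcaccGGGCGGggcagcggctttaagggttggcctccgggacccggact
Igfbp4: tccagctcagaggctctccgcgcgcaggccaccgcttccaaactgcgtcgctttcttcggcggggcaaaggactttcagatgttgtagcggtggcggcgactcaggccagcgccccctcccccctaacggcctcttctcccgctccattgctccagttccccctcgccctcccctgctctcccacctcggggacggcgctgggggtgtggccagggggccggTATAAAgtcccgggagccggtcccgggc

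Both strands were searched. The SMAD-binding element was searched for with the letters CAGAC and the AP-1 element with the letters TGANTCA. The Sp1 GC box was searched for with the letters GGGCGG and the TATA box with the letters TATAAA. The *Igfbp7* window held 4 GC boxes, starting 110, 96, 74 and 44 bases before the start site, and no other match. The *Igfbp4* window held 1 TATA box, 28 bases before the start. The *Igfbp3* window held none of the 4 letter strings. Of the 9 RefSeq windows of the family (*Igfbp2* has 2), 4 held the SMAD-binding element, 1 the AP-1 element, 4 the GC box and 2 the TATA box, and no match overlapped one of another motif. The bases after the RefSeq start were found in GENCODE M21 transcripts of the gene for 5 of the 9 windows, among them the 3 shown. They were not for *Igf1r*, *Igf2r*, *Igfbp6* and the first *Igfbp2* window, so those windows may not lie before the start of the transcripts counted here, and 3 of the 4 windows with a SMAD-binding element are among them. Among 32851 RefSeq promoters in the same 250-base window, the SMAD-binding element was present in 42.2%, the AP-1 element in 6.75%, the GC box in 32.7% and the TATA box in 12.4%. The G and C share was 73.2% for *Igfbp3*, 74.0% for *Igfbp7* and 69.2% for *Igfbp4*. A letter match is a description and not a binding site.

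Library totals ran from 18389235 to 23440550 counts, at which 3 counts, taken as the limit of detection, equal 0.125 to 0.162 CPM (counts relative to the library size after TMM scaling, a trimmed mean of log ratios between libraries). *Smad4* itself checked the labels, with 33.7 to 35.5 CPM in the 4 Smad4 off libraries and 97.4 to 117 CPM in the 4 Smad4 on libraries. Smad4 off therefore means lowered and not absent *Smad4* RNA. With Smad4 on it was 3.31-fold higher under TGFβ1 and 3.08-fold higher under SB505124. All 6 ductal epithelial marker genes were counted, with sums of 1203 to 5561 CPM, although *Epcam*, an epithelial adhesion molecule, reached only 0.153 to 2.11 CPM. Of 7 fibroblast markers 3 (*Dcn*, *Lum* and *Thy1*) had at most 3 counts in any library. The others reached up to 627 CPM (*Col1a1*), 27.2 CPM (*Pdgfrb*), 6.41 CPM (*Pdgfra*) and 3.01 CPM (*Col1a2*). The acinar genes *Cpa1*, *Ptf1a* and *Amy2a5* had 0 counts in all 8 libraries, and the acinar gene *Cela1* was at 0.408 to 1.33 CPM.

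Of the 8 members, 5 passed the filter on low counts, which kept 14301 genes in all. These were *Igfbp3*, *Igfbp4*, *Igfbp7*, *Igf1r* and *Igf2r*. Levels of different genes were compared only as CPM per kilobase of exon, with the gene length given in the deposited table. For every member but *Igf2r* this length equals the union of exons over all annotated transcripts. It can exceed the length of the transcripts expressed, so the order of genes with near levels may depend on it, which was not tested. By the mean over the 8 libraries on this scale, *Igfbp7* was the highest member at 271 CPM per kilobase ± 195 (SD, n = 8) and ranked 118 of 14301. *Igfbp4* followed at 226 ± 119 and rank 153, and *Igfbp3* at 78.3 ± 38.0 and rank 582. The receptors were lower, *Igf2r* at 18.3 ± 1.57 and rank 3035 and *Igf1r* at 8.89 ± 0.942 and rank 5507. The levels of *Igfbp7* and *Igfbp4* lay within each other's spread, whereas the lowest *Igfbp3* library (35.4 CPM per kilobase) was above the highest *Igf2r* library (20.9) and the lowest *Igf2r* library (16.3) above the highest *Igf1r* library (10.0).

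The other 3 members were at or near the detection limit. *Igfbp2*, the main binding protein of fetal plasma and of several carcinomas, had 4 and 18 counts in the B87 libraries under SB505124 (Smad4 off and Smad4 on) and 0 in the other 6 libraries. *Igfbp5*, which binds strongly to bone and extracellular matrix, had between 0 and 4 counts in every library. *Igfbp6*, whose protein prefers IGF2 over IGF1, had 8, 7, 5 and 0 counts in B73 and 5, 4, 0 and 0 in B87, in the order SB505124 with Smad4 off, SB505124 with Smad4 on, TGFβ1 with Smad4 off, TGFβ1 with Smad4 on. Summed over libraries, *Igfbp6* had 24 counts under SB505124 and 5 under TGFβ1, too few for the main test to include it. *Igfbp2* and *Igfbp5* are neighbours on chromosome 1, 5457 bases apart in the table's GRCm38 coordinates, and both were near silent.

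**Figure D1:**
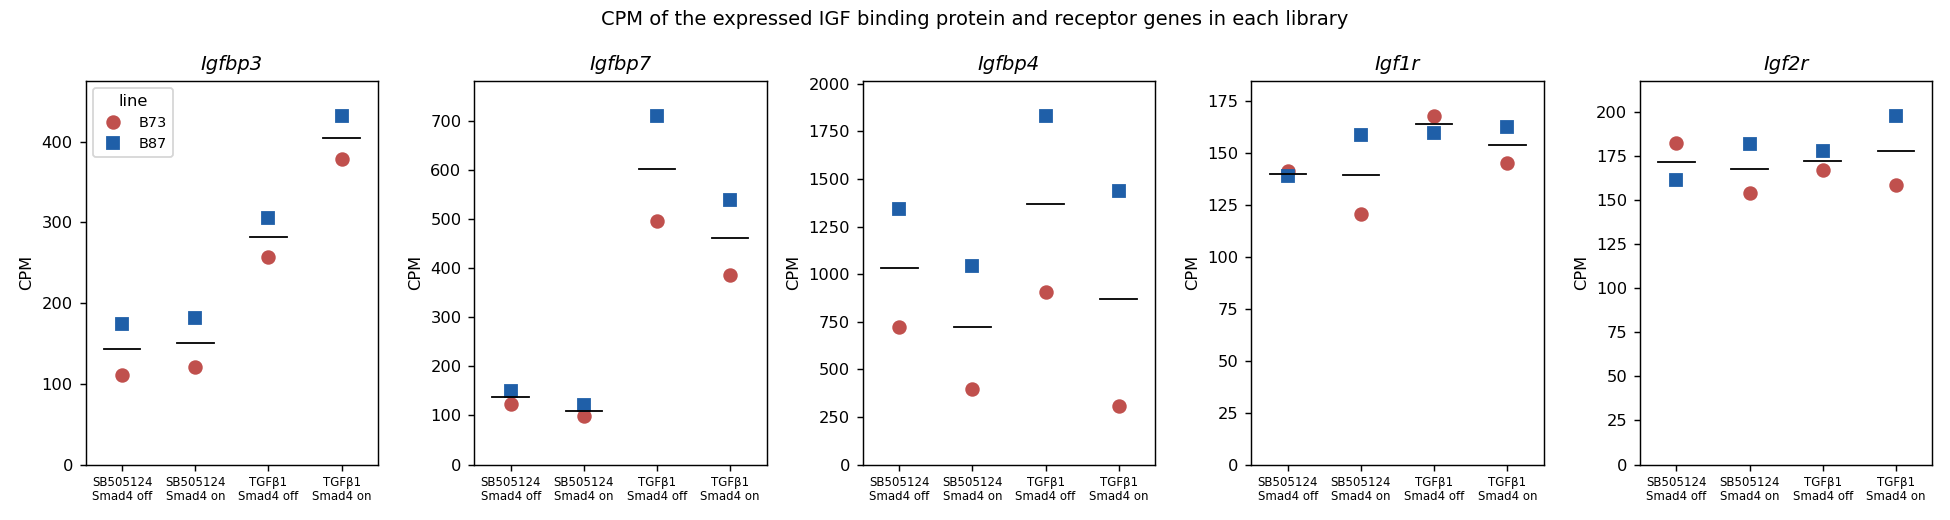
CPM of the 5 members that passed the low-count filter (vertical axes, each starting at 0) in the 4 groups, with a circle for line B73, a square for line B87 and a bar for the mean of the 2. *Igfbp3* and *Igfbp7* are higher in all 4 TGFβ1 libraries than in all 4 SB505124 libraries, *Igfbp4* is higher in B87 than in B73 in every group, and the receptors stay within a narrow range.

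The first question was which members responded to TGFβ1. *Igfbp3* and *Igfbp7* rose under TGFβ1 in both *Smad4* states, and *Igfbp4*, *Igf1r* and *Igf2r* did not pass the test. Of the 5 tested members, 2 were called higher in Smad4 on cells, against 5.62% of all tested genes called higher and 13.9% called in either direction. In Smad4 off cells 2 were also called higher, against 3.11% higher and 5.93% in either direction. A gene was called when its edgeR quasi-likelihood test gave a Benjamini-Hochberg adjusted p under 0.05 over all 14301 genes and the change exceeded 2-fold.

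*Igfbp7* (chromosome 5, 77349240 to 77408041, minus strand) had the largest response of the family. In B73 its level with SB505124 was 124 CPM (Smad4 off) and 99.0 CPM (Smad4 on), and with TGFβ1 it was 496 and 387 CPM. In B87 the levels were 150 and 120 CPM under SB505124 and 710 and 538 CPM under TGFβ1. All 4 TGFβ1 libraries lay above all 4 SB505124 libraries. By edgeR with Benjamini-Hochberg adjustment the log2 fold change was 2.06 ± 0.0968 (SE, adjusted p = 5.48e-05) in Smad4 on cells and 2.12 ± 0.0968 (adjusted p = 0.000158) in Smad4 off cells. Both correspond to a rise of about 4-fold, 3.90-fold in B73 and 4.47-fold in B87 with Smad4 on, and 4.0-fold and 4.73-fold with Smad4 off. The difference between these responses, the *Smad4* by TGFβ1 interaction, was -0.06 with a 95% interval of -0.37 to 0.25 (adjusted p = 0.918, edgeR). A *Smad4*-dependent part of the response within that interval was not detectable. Smad4 off cells still held *Smad4* RNA (33.7 to 35.5 CPM), so a response without *Smad4* was not measured. An 85-base overlap with *Polr2b* on the opposite strand accounts for 11 of its 1204 distinct 75-base transcript stretches (0.914%), the only ones shared with another gene.

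*Igfbp3*, the main IGF carrier of adult serum, lies on chromosome 11 (7206086 to 7213923, minus strand). Its level under SB505124 was 111 and 121 CPM in B73 and 174 and 181 CPM in B87 (Smad4 off, then Smad4 on). Under TGFβ1 it was 257 and 378 CPM in B73 and 306 and 432 CPM in B87. The 4 TGFβ1 libraries lay above the 4 SB505124 libraries, and within TGFβ1 the Smad4 on library of each line was the higher. The log2 fold change was 1.45 ± 0.132 (adjusted p = 0.000423, edgeR) in Smad4 on cells, a 2.74-fold rise, and 1.01 ± 0.131 (adjusted p = 0.00474) in Smad4 off cells, a 2.01-fold rise. The rise in Smad4 off cells stood at the fold threshold, 2.32-fold in B73 and 1.75-fold in B87. It fell short of 2-fold without the B73 library of either Smad4 off group, with log2 fold changes of 0.86 without the SB505124 library and 0.90 without the TGFβ1 library. Without the line in the model it was 0.98 (adjusted p = 0.153, edgeR). No 75-base stretch of its transcripts occurs in another gene.

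*Igfbp4*, a binding protein mostly described as an inhibitor of IGF action, lies on chromosome 11 (99041244 to 99054392, plus strand). In B73 SB505124 libraries it was at 723 CPM with Smad4 off and 396 CPM with Smad4 on, and in B73 TGFβ1 libraries at 908 and 307 CPM. In B87 they were 1342 and 1043 CPM under SB505124 and 1831 and 1436 CPM under TGFβ1. TGFβ1 and SB505124 libraries overlapped. The TGFβ1 difference was 0.38 ± 0.288 on the log2 scale in Smad4 off cells (adjusted p = 0.438, edgeR) and 0.11 ± 0.290 in Smad4 on cells (adjusted p = 0.806), where the lines went in opposite directions (-0.37 in B73 and 0.46 in B87). The 95% interval in Smad4 on cells ran from -0.58 to 0.80. Of its distinct 75-base transcript stretches, 0.432% also occur in the neighbouring gene model *Gm15902*.

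Markers of other cell types were read in the same libraries. In bulk RNA, fewer cells of a type and less RNA per cell cannot be told apart. The summed level of the 7 fibroblast markers was 4.0 to 4.29 CPM under SB505124 and 6.43 to 8.93 CPM under TGFβ1 in B73, and 43.9 to 152 CPM and 184 to 647 CPM in B87. *Col1a1*, a fibrillar collagen gene, made up to 627 CPM of that sum. The 4 endothelial markers summed to 0.702 to 5.18 CPM under SB505124 and 3.42 to 26.1 CPM under TGFβ1, with *Kdr* at up to 25.2 CPM and *Pecam1* at no more than 5 counts. The 4 leukocyte markers summed to 1.33 to 6.34 CPM and the 4 acinar markers to 0.408 to 1.33 CPM. The part of any of these in the *Igfbp3* and *Igfbp7* differences was not tested.

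**Figure D2:**
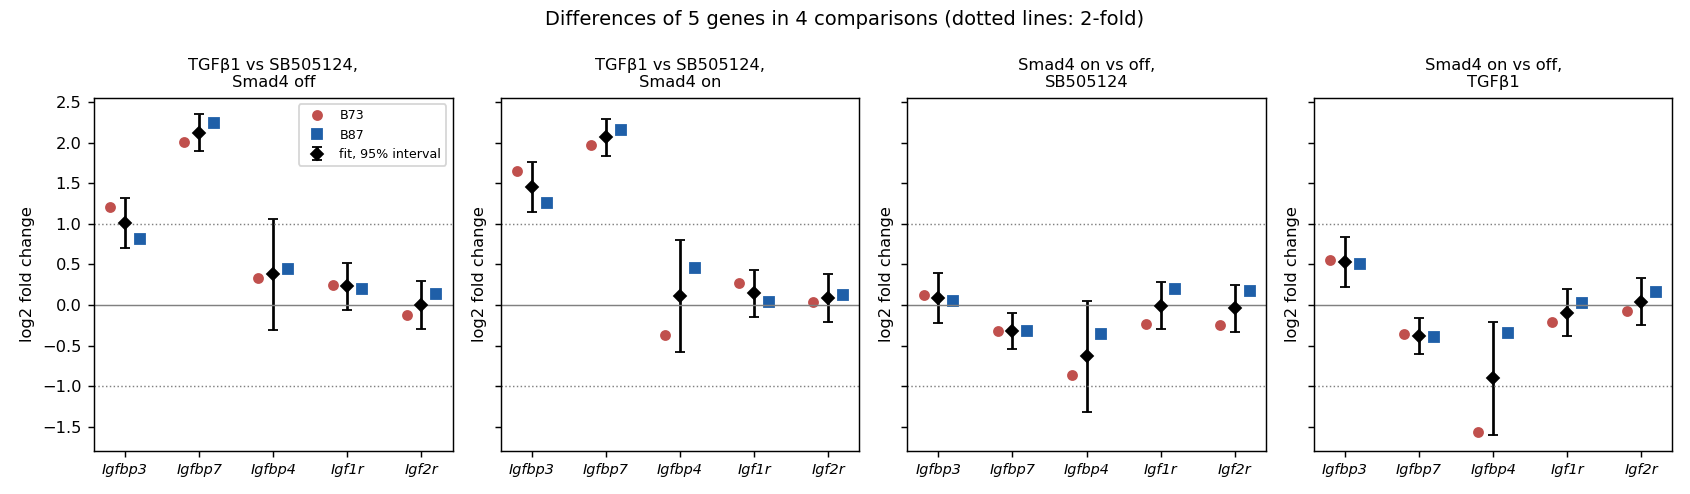
Log2 fold change (vertical axis) of 5 members in 4 comparisons, with a diamond and bar for the edgeR estimate and its 95% interval and a circle (B73) and square (B87) for each line. *Igfbp7* lies near 2 in both TGFβ1 comparisons and *Igfbp3* at 1.01 and 1.45, while for *Smad4* no estimate passes the dotted 2-fold lines.

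The second question was whether restoring *Smad4* changed the family. No member passed the test. Under TGFβ1, 0 of the 5 tested members were called by edgeR, against 3.12% of all tested genes, and 3 had an unadjusted p under 0.05, as did 23.7% of all tested genes. Under SB505124, 0 of 5 were called against 1.09%, and 1 had an unadjusted p under 0.05, as did 12.6% of all genes. DESeq2 with the line also called 0 in both. For the interaction, 0 of 5 were called by edgeR and by DESeq2 against 0.189% by edgeR, and 1 (*Igfbp3*) had an unadjusted p under 0.05, as did 10.4% of all genes.

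*Igfbp3* was higher in the Smad4 on library of both lines under TGFβ1, by 1.47-fold in B73 and 1.41-fold in B87. The log2 fold change of 0.53 ± 0.129 missed the threshold (adjusted p = 0.0577, edgeR). With DESeq2 and the line it was 0.53 with an adjusted p of 0.00710, still under 2-fold. In edgeR the adjusted p was 0.00248 with no filter on low counts and 0.0153 with only the 4 libraries compared. Without the line it was 0.486 in edgeR and 0.341 in DESeq2. Under SB505124 Smad4 on exceeded Smad4 off by 1.09-fold in B73 and 1.04-fold in B87 (log2 fold change 0.08 ± 0.130, adjusted p = 0.851, edgeR). The interaction was 0.45 ± 0.183 (unadjusted p = 0.0455, adjusted p = 0.461, edgeR), with 1.35-fold in B73 and 1.36-fold in B87.

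*Igfbp7* was lower in the Smad4 on library of both lines in both treatments. Under TGFβ1 the log2 fold change was -0.38 ± 0.0926 (adjusted p = 0.0576, edgeR), or 1.28-fold lower in B73 and 1.32-fold lower in B87. Under SB505124 it was -0.32 ± 0.0941 (adjusted p = 0.204). With DESeq2 and the line the adjusted p was 0.00794 for TGFβ1 and 0.0933 for SB505124. For TGFβ1 in edgeR it was 0.0139 with no filter on low counts and 0.0373 with only the 4 libraries compared. Without the line it was 0.567 in edgeR and 0.538 in DESeq2 for TGFβ1. *Igfbp3* and *Igfbp7* thus had opposite signs under TGFβ1 in each line, the former higher and the latter lower with Smad4 on.

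*Igfbp4* had the widest gap between lines. With Smad4 on it was 2.95-fold lower in B73 and 1.27-fold lower in B87 when TGFβ1 was given. Under SB505124 it was 1.82-fold lower in B73 and 1.29-fold lower in B87. All 4 within-line differences had the same sign, but the fitted log2 fold changes of -0.90 ± 0.293 (adjusted p = 0.123, edgeR) and -0.63 ± 0.290 (adjusted p = 0.430) did not pass. Their 95% intervals were -1.60 to -0.21 and -1.32 to 0.05. Over the alternatives that tested for any change, the adjusted p under TGFβ1 ranged from 0.000719 (edgeR, no filter on low counts) to 0.885 (DESeq2 without the line). Without the B87 library of the Smad4 on group under TGFβ1 the log2 fold change was -1.52 (adjusted p = 0.0120, edgeR), and without the B73 library of that group it was -0.40 (adjusted p = 0.315). Under SB505124 it was -0.29 (adjusted p = 0.808) without the B73 library of the Smad4 off group. The epithelial marker sum was higher with Smad4 on in B73 (3475 against 5561 CPM under SB505124) and lower in B87 (2085 against 1677 CPM), and its part in these values was not tested.

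The receptors stayed close to constant. *Igf1r* (chromosome 7, 67952827 to 68233668, plus strand) was measured at 141, 120, 168 and 145 CPM in B73 and at 139, 159, 160 and 163 CPM in B87, in the order SB505124 with Smad4 off, SB505124 with Smad4 on, TGFβ1 with Smad4 off, TGFβ1 with Smad4 on. *Igf2r* (chromosome 17, 12682406 to 12769664, minus strand) was measured at 182, 154, 167 and 158 CPM in B73 and at 161, 181, 177 and 198 CPM in B87 in the same order. The highest library was 1.39-fold above the lowest for *Igf1r* and 1.29-fold for *Igf2r*, compared with 3.89-fold for *Igfbp3*, 5.96-fold for *Igfbp4* and 7.17-fold for *Igfbp7*.

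For *Igf1r* the TGFβ1 difference was 0.23 on the log2 scale in Smad4 off cells (95% interval -0.06 to 0.52, adjusted p = 0.273, edgeR) and 0.14 in Smad4 on cells (-0.14 to 0.43, adjusted p = 0.403). Its *Smad4* difference was -0.09 under TGFβ1 (-0.38 to 0.19) and -0.01 under SB505124 (-0.30 to 0.28). For *Igf2r* the TGFβ1 differences were 0.00 (-0.29 to 0.29) and 0.09 (-0.21 to 0.38), and the *Smad4* differences were 0.04 (-0.25 to 0.34) and -0.04 (-0.34 to 0.25). Every one of these 8 intervals contained 0 and excluded a 2-fold change. Per unit length *Igf2r* exceeded *Igf1r* by 1.77-fold to 2.30-fold in every library. *Airn*, the antisense transcript that overlaps *Igf2r* over 28354 bases and silences it on the paternal allele in many tissues, had 30 to 71 counts and was called in no comparison. Strand settings of the counting were not given in the sources used here, so reads of the pair cannot be fully told apart.

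The third question was how the lines differed. *Igfbp4* was higher in B87 in all 4 conditions, with log2 differences under SB505124 of 0.89 when Smad4 was off and 1.40 when it was on, and under TGFβ1 of 1.01 and 2.22. The line term was 1.38 ± 0.210 (adjusted p = 0.00532, edgeR), a 2.60-fold difference, and made *Igfbp4* the 1 of 5 members called between lines, higher in B87. Over all tested genes 8.37% were called between lines and 3.87% were called higher in B87. *Igfbp3* and *Igfbp7* were also higher in B87, by 0.42 ± 0.0920 (adjusted p = 0.0216) and 0.39 ± 0.0661 (adjusted p = 0.00786) on the log2 scale, both under 2-fold. This compares 2 lines and says nothing of other tumors.

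Whether the responses themselves differed between lines was tested with an added term. For the TGFβ1 response 0 of 5 members were called, 1 had an unadjusted p under 0.05, as did 8.38% of all genes, and 0% of all genes were called by edgeR; DESeq2 called 0 members. The *Igfbp3* response was smaller in B87, with a line-by-TGFβ1 term of -0.40 (adjusted p = 0.534), and the *Igfbp4* term was 0.47 (adjusted p = 0.780). For the *Smad4* effect 0 of 5 members were called by edgeR and by DESeq2, against 0.392% of genes by edgeR. An unadjusted p under 0.05 was given to 3 by edgeR, as to 9.85% of all genes, and to 1 by DESeq2 with the line. The *Igfbp4* term was 0.86 ± 0.254 (adjusted p = 0.294), so its larger fall in B73 was not shown to differ from that in B87. With single libraries left out it ranged from 0.45 to 1.29. The high end (adjusted p = 0.0325) came without the B73 or the B87 library of the Smad4 on group under SB505124, and the low end (adjusted p = 0.449 and 0.445) without the B73 or the B87 library of the Smad4 on group under TGFβ1.

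The makeup of the binding protein pool per unit length changed with treatment. *Igfbp4* was the most abundant of the 6 binding proteins in each SB505124 library, at 42.6% to 62.8% of their summed CPM per kilobase. *Igfbp7* was the most abundant in each TGFβ1 library, at 49.0% to 62.7%. The ratio of *Igfbp7* to *Igfbp4* was 0.409 to 0.912 under SB505124 and 1.37 to 4.59 under TGFβ1. *Igfbp3* made 8.88% to 23.7% of the sum, and its share was higher in the Smad4 on library of each line and treatment. In B73 under TGFβ1 it was 11.8% with Smad4 off and 23.7% with Smad4 on, and in B87 8.88% and 15.2%. These are shares of one sum, so one member's share falls when another's level rises, and they were not tested. Which of *Igfbp4* and *Igfbp7* is the more abundant also depends on the exon lengths used. In CPM not divided by length under TGFβ1, *Igfbp4* was above *Igfbp7* in B73 with Smad4 off (908 against 496). In B87 it was also above, at 1831 against 710 with Smad4 off and 1436 against 538 with Smad4 on. Only in B73 with Smad4 on was it below (307 against 387).

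**Figure D3:**
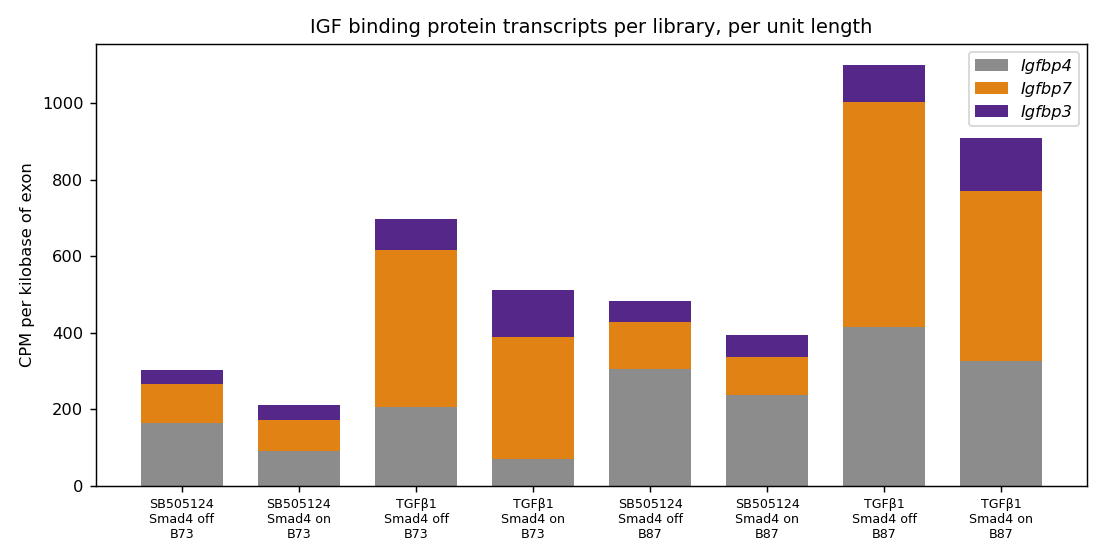
CPM per kilobase of exon (vertical axis) of *Igfbp4*, *Igfbp7* and *Igfbp3*, stacked for each of the 8 libraries, B73 on the left and B87 on the right. The stack is 211 to 484 CPM per kilobase under SB505124 and 510 to 1100 under TGFβ1. Per kilobase the *Igfbp7* layer is the thickest in all 4 TGFβ1 libraries, an order that depends on the exon lengths used.

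The rest of the pathway was read from 9 lists of 48 genes, of which 36 passed the low-count filter. In Smad4 on cells 4 of the 36 were called higher and 3 lower under TGFβ1, beside 13.9% of all tested genes called and 5.62% called higher. The Smad4 off cells had 3 called upward and 1 downward, beside 5.93% of all genes called and 3.11% called higher. Restoring *Smad4* gave 1 higher and 1 lower under TGFβ1 (3.12% of all genes called) and 1 higher and 0 lower under SB505124 (1.09%). The median log2 fold change of the 36 genes was -0.08 in Smad4 on cells and 0.01 in Smad4 off cells, beside -0.02 in each for all tested genes.

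Ligand transcripts were scarce. *Igf1*, encoding the principal ligand of IGF1R, had 0 to 2 counts in the B73 libraries. In B87 it had 22 and 24 counts under SB505124 and 494 and 444 counts under TGFβ1 (Smad4 off, then Smad4 on), or 0.966, 0.998, 24.6 and 22.6 CPM. The TGFβ1 difference within B87 was 4.54 on the log2 scale with Smad4 off and 4.38 with Smad4 on, and in B73 the gene was at the detection limit under both treatments. By edgeR it was called higher under TGFβ1 in Smad4 on (adjusted p = 0.00367) and Smad4 off cells (adjusted p = 0.00985), a call that rests on B87. The fibroblast marker sum was likewise higher in B87 than in B73. *Col1a1* made up to 627 CPM of that sum, and *Pdgfrb*, *Pdgfra* and *Col1a2* reached at most 27.2 CPM. *Dcn*, *Lum* and *Thy1* had at most 3 counts in any library. The paper states that tumor-derived lines were passaged to remove nontumor cells before use. The part of the marker genes in the *Igf1* values was not tested. *Igf2* had at most 1 count in any library, and *Ins1* and *Ins2* had 0. The liver-type binding partners were missing too, with 0 counts of *Igfbp1*, which lies 3539 bases from *Igfbp3*, and at most 2 counts of *Igfals*, the acid-labile subunit that joins IGFBP3 and IGF in the serum complex.

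Of the 7 genes for proteases of the binding proteins and their regulators 5 were tested. Under TGFβ1 in Smad4 on cells 2 were called higher and 2 lower, beside 13.9% of all tested genes called and 5.62% called higher. *Adam12*, a metalloprotease reported to cut IGFBP3 and IGFBP5, was measured at 12.8 and 24.0 CPM under SB505124 and 36.1 and 155 CPM under TGFβ1 in B73, and at 14.7, 39.6, 61.1 and 174 CPM in B87 (Smad4 off before Smad4 on). It was the one gene of the 36 called higher both with TGFβ1 (log2 fold change 2.41 ± 0.173 with Smad4 on, adjusted p = 0.000192, edgeR) and with Smad4 on (1.81 ± 0.168 under TGFβ1, adjusted p = 0.00287, and 1.18 ± 0.179 under SB505124, adjusted p = 0.0296). *Htra1*, a secreted serine protease, rose by 1.10 ± 0.182 (adjusted p = 0.00452). *Stc2*, a stanniocalcin that inhibits the IGFBP4 protease PAPP-A, was at 27.4 to 48.8 CPM under SB505124 and 1.99 to 6.38 CPM under TGFβ1. It fell by 4.01 on the log2 scale with TGFβ1 in Smad4 on cells (SE 0.222, adjusted p = 0.000100), and was lower with Smad4 on under TGFβ1 (-1.48 ± 0.233, adjusted p = 0.0152). *Stc1*, its paralog, also fell with TGFβ1 in Smad4 on cells (-3.49 ± 0.547, adjusted p = 0.00360). With Smad4 on it had 137 counts under SB505124 and 10 under TGFβ1 in B87. In B73 it had 6 and 0, near the detection limit, so the call rests mostly on B87. *Pappa* had at most 10 counts and *Pappa2* at most 6.

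Genes downstream of the receptors are set beside the shares of all tested genes called. These were 13.9% for TGFβ1 in Smad4 on cells and 5.93% in Smad4 off cells. For *Smad4* they were 3.12% under TGFβ1 and 1.09% under SB505124. Of 13 signal transducers 13 were tested and 0 were called in these 4 comparisons. Of these, *Foxo1*, a transcription factor inhibited by AKT and named here after its values were seen, was higher with Smad4 on under TGFβ1 by 0.82 ± 0.153 (adjusted p = 0.0266, edgeR) but under 2-fold, and by 0.70 under SB505124 (adjusted p = 0.0992). Of 8 receptor adaptors 6 were tested, and 1, *Grb14*, an inhibitory adaptor of the insulin receptor, was called, higher with TGFβ1 in Smad4 on cells (1.11 ± 0.258, adjusted p = 0.0167, edgeR). *Insr*, the insulin receptor, had 903 to 1366 counts and was not called. Of the 5 other binding protein genes 2 were tested, and *Kazald1* was lower with TGFβ1 in Smad4 on cells (-2.35 ± 0.609, adjusted p = 0.0251) at no more than 51 counts. Between lines, 2 of the 36 were called higher and 3 lower in B87 (8.37% of all genes called, 3.87% higher), among the latter *Igf2bp1* (-1.90 ± 0.0860, adjusted p = 4.12e-05) and *Igf2bp3* (-2.61 ± 0.339, adjusted p = 0.00265), which encode oncofetal proteins that bind *Igf2* mRNA. Sorting genes for mannose 6-phosphate (*M6pr*, *Gnptab*, *Gnptg* and *Nagpa*) were not called. *Gnptab*, which encodes subunits of the phosphotransferase that makes the tag and is named here after its values were seen, was lower with TGFβ1 by a log2 fold change of -0.98 ± 0.109 in Smad4 on cells (adjusted p = 0.000918, edgeR) and -0.55 ± 0.108 in Smad4 off cells (adjusted p = 0.0203), both under 2-fold.

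**Figure D4:**
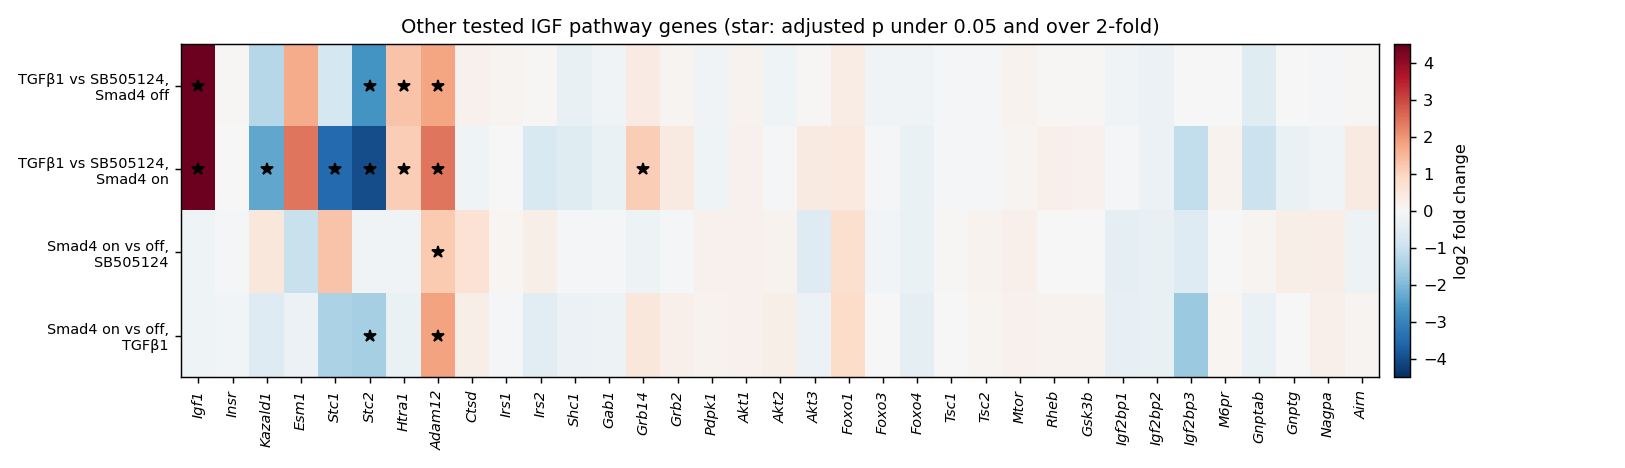
Log2 fold change (color, red higher and blue lower) of the 36 tested genes of the other IGF pathway lists (columns, 1 gene not shown) in 4 comparisons (rows), with a star where adjusted p was under 0.05 and the change over 2-fold. Stars are few outside the ligand and the protease lists, and *Adam12* alone has one in all 4 rows.

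Among themselves, *Igfbp3* and *Igfbp7* were the members most alike, with a Pearson r of 0.881 over the 8 libraries after each line's mean log2 CPM was subtracted, and *Igfbp3* and *Igfbp4* had an r of -0.06. Over 11099 genes with a mean log2 CPM of at least 1, the 2 genes most like *Igfbp7* were *Gxylt2* (r = 0.998) and *Ttll5* (0.997), and those most like *Igfbp3* were *Cyth2* (0.997) and *Sh3bp2* (0.997). *Zfp629* (0.975) and *Tmem173* (0.975) were nearest to *Igfbp4*, *Gpatch8* (0.991) and *Pcdhgc3* (0.991) to *Igf1r*, and *Tfpi* (0.975) and *Rnf150* (0.974) to *Igf2r*. These values describe the same 8 libraries, in which all genes share treatment, line and depth.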

How the data were processed

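Poly(A) RNA from 8 cultures was made into stranded libraries and read as single-end 75-base reads. According to the submitters' processing notes, the authors used FastQC 0.11.5, Trimmomatic 0.36, STAR 2.5.3a (GRCm38, mm10) and featureCounts 1.6.3. The deposited values are raw counts per Ensembl gene, 1 column per library, without pooling. Strand and multimapping settings were not given in the sources used here. Totals are given in the report, and limits of 3 counts cover counting error only, since PCR copies cannot be separated from molecules.

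Groups and lines came from the sample labels. Counts were tested with edgeR 4.0.16 in R 4.3.3 (TMM, filterByExpr, quasi-likelihood F-test) in 1 model of all 8 libraries with group and cell line as terms and Benjamini-Hochberg adjustment over 14301 genes. SE was derived from the log2 fold change and F. Within-line differences used log2 CPM with a prior count of 2. The study used DESeq2 and names no covariate. The line was included because each line went through all 4 conditions. It pairs the libraries, and line deviations from the group means correlated between groups at 0.642 to 0.774 over 6 pairs of groups. Named genes were the 8 members, the ligands, *Igfbp1*, *Igfals*, up to 4 called genes per pathway list and the 2 genes most alike each member. Of the lists, 1 gene is counted but not reported by itself. The members, lists and tests were chosen with earlier results of these data known.

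Promoters are from RefSeq (GRCm38.p6; all 8 members matched by symbol) and gene positions from the deposited table, equal to GENCODE M21 for these genes. Shared 75-base stretches were counted in GENCODE M21 transcripts. The alternatives changed the tool (DESeq2 1.42.0), the scaling (its size factors), the line term, the low-count filter, the fold rule or the libraries in the fit (only the 4 of a comparison, or all but 1).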

Additional observations from a re-analysis of the deposited data

Results flagged for a closer look

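The *Smad4* difference of both receptors had opposite signs in the 2 lines. For *Igf1r* it was -0.23 under SB505124 and -0.21 under TGFβ1 in B73, and 0.19 and 0.03 in B87, an average of 0.331 higher in B87 on the log2 scale. For *Igf2r* it was -0.25 and -0.08 in B73 and 0.17 and 0.16 in B87, an average of 0.326 higher in B87. An edgeR model of all genes with an added term for this difference did not call either receptor after Benjamini-Hochberg adjustment, with an adjusted p of 0.453 for *Igf1r* and 0.483 for *Igf2r*.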

How the results depend on the processing

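Results were recomputed under each alternative. Of the recomputed log2 fold changes of single genes, 439 kept their sign and their call, 21 changed sign, 6 lost a call and 3 gained one. The *Igfbp7* calls with TGFβ1 and the *Igfbp3* call with TGFβ1 in Smad4 on cells held under every alternative run. The 2 members called with TGFβ1 in Smad4 off cells became 1 (*Igfbp7*) without the line in edgeR, without the line in DESeq2 and under a test against 2-fold, and 1 to 2 when single libraries were left out. These no replicate block fits ignore the pairing of libraries by line and give *Igfbp3* 0.98 (edgeR) and 0.99 (DESeq2). Without the line, edgeR called 1.17% of all genes in that comparison in place of 5.93%, and 0.252% in place of 3.12% for *Smad4* under TGFβ1. In Smad4 on cells the 2 became 4 with no filter on low counts, which adds *Igfbp2* and *Igfbp6* at under 20 counts, and 2 to 3 with single libraries left out. Between lines the 1 called member became 2 with no filter, 3 with no fold rule and 0 under a test against 2-fold. With single libraries left out, 0 to 1 members were called for *Smad4* under TGFβ1 and 0 to 1 for the line difference in the *Smad4* effect, both *Igfbp4*. Of values that were not called, *Igf1r* for *Smad4* under SB505124 was 0.000407 in DESeq2 without the line, and *Igf2r* for TGFβ1 in Smad4 off cells was -0.00403 with at least 10 counts in every library.

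Leaving out single libraries turned the sign of small, uncalled log2 fold changes, with the following ranges. For *Smad4* under TGFβ1 they were -0.224 to 0.0364 (*Igf1r*) and -0.10 to 0.17 (*Igf2r*). For *Smad4* under SB505124 they were -0.0644 to 0.253 (*Igfbp3*), -0.20 to 0.17 (*Igf1r*) and -0.23 to 0.16 (*Igf2r*). For TGFβ1 in Smad4 on cells they were -0.52 to 0.60 (*Igfbp4*), -0.0268 to 0.335 (*Igf1r*) and -0.0544 to 0.214 (*Igf2r*). For TGFβ1 in Smad4 off cells *Igf2r* ran from -0.18 to 0.21. The interaction ran from -0.91 to 0.22 (*Igfbp4*) and from -0.143 to 0.0151 (*Igfbp7*), and the line difference in the TGFβ1 response from -0.14 to 1.10 (*Igfbp4*). The cause was not tested. Each group holds 1 library per line, so a fit without 1 library assumes that the remaining one varies like the others, and leaving out a whole line leaves the within-line values with no test.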
